A study of Mus musculus with 20 samples.

Results

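The genes described here are those that define a spinal motoneuron and its use of acetylcholine: the LIM homeodomain factors Isl1, Isl2, Lhx3 and Lhx4, the homeodomain factor Mnx1, the forkhead factor Foxp1, the choline acetyltransferase gene Chat, the acetylcholine vesicle transporter gene Slc18a3, the choline transporter gene Slc5a7 and the GDNF receptor gene Ret. They are defined by gene symbol. Of the 10 genes named, 9 were analysed, out of 39174 genes in all, and Slc18a3 was not analysed here. The libraries came from motoneurons of CD-1 mouse embryos, enriched on dishes coated with an antibody against p75 (gene Ngfr) and grown for 7 days in microfluidic chambers with a separate side into which the axons grow. All cells were transduced with lentivirus, either the empty vector (control, 4 somatodendritic and 4 axonal libraries) or a vector expressing a short hairpin RNA against Tdp-43 (Tdp-43 knockdown, 6 somatodendritic and 6 axonal libraries). The control libraries are labelled GFP, and the paper states that its lentiviral constructs also expressed GFP. All cultures received CNTF on both sides and BDNF on the axonal side, and total RNA was amplified by PCR before sequencing. Such enrichment does not select a single cell type, and each bulk library sums over all cells that contributed RNA. The comparisons ask how these transcripts are placed between soma and axon, and whether they change when Tdp-43 is depleted.

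In the embryonic spinal cord, motoneurons arise from Olig2-positive progenitors. Isl1, Isl2 and Lhx3 act together through the adaptor Ldb1 to switch on the motoneuron programme, Mnx1 holds that programme against interneuron fates, Lhx4 acts in parallel with Lhx3, and Foxp1 works with Hox factors to set columns and limb pools. The cholinergic genes act at the terminal: Slc5a7 takes up choline, Chat makes acetylcholine, and the product of Slc18a3 loads it into vesicles. Ret is the signalling receptor for the GDNF family and binds its ligands through Gfra co-receptors.

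The hairpin, shown because it defines the knockdown group, targets this sequence, with all of its bases matched to the mouse transcript:
shTdp-43 target: GCATAATAGCAATAGACAGTT
The 21 bases lie in coding sequence of exon 6 of Tardbp, the gene for Tdp-43, at chr4:148618697-148618717 on the minus strand of GRCm38. Tardbp was the 1 gene with an exact match, and none of the 9 genes (0 of 9) held one.

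The values are FPKM, fragments per transcript length and library total, computed by the authors for each library. From the 95% interval that accompanies each value, the libraries were found to rest on 75119 to 720826 fragments, 4239884 over the 10 somatodendritic and 3836024 over the 10 axonal libraries. At these totals 3 fragments of Chat, with a transcript of 2858 bases, correspond to 1.46 to 13.97 FPKM in a single library, so that zeros were read over all libraries together. Of 76 cytosolic ribosomal protein genes, 57 were above 0 in all 20 libraries and 0 were listed at 0 in all 20. Tardbp fell to 4.01 ± 3.44 FPKM (SD, n = 6) in somatodendritic knockdown libraries from 27.3 ± 5.55 FPKM (SD, n = 4) in control, or 14.7% (exact permutation test, two-sided, p = 0.00476, which is the lowest possible for 4 against 6 libraries). In axonal libraries it was at 13 ± 11.1 FPKM (SD, n = 6) against 24.6 ± 9.39 FPKM (SD, n = 4), or 52.9%, which did not pass as deposited (exact permutation test, p = 0.138). After scaling of the libraries by median ratios it was 35.1% and passed (exact permutation test, p = 0.00952), so that this call depends on the scaling. The library labelled axonal knockdown replicate 1 had 33.2 FPKM. As deposited, leaving out each library in turn gave 36.5 to 62.5% of the control mean, with p from 0.0159 to 0.298 by exact permutation. The lowest of each was without that replicate, which was singled out by its Tardbp value, so that its p is a description and not a test. The labels do not say that libraries of a group came from separate cultures, so p-values measure the spread between these libraries, which may in part be technical.

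The defining genes of motoneurons ranged from 0 in every library to a few FPKM. Mnx1, Isl2 and Chat were listed at 0 in all 20 libraries, and Slc5a7 was above 0 in 1. Isl1 was above 0 in 8, Lhx3 in 5 and Lhx4 in 11 libraries. Over the 10 somatodendritic libraries together, weighted by depth, Isl1 was at 2.12 FPKM and Lhx4 at 2.14 FPKM, above what 3 fragments are worth there (0.281 and 0.128 FPKM), and Lhx3 was at 0.833 FPKM against 0.318 FPKM. Foxp1 and Ret, which are not particular to motoneurons, were each above 0 in 19 of 20. Of the markers analysed, Mnx1, Isl2 and Chat as listed thus went against the labelled cell type, though these zeros are the authors' estimates and were not checked in the reads, while Isl1, Lhx3 and Lhx4, which other neurons also express, were detected. A share of all protein-coding genes close to that of these 9 was also at 0 throughout, and the cells are called cultures below.

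**Figure D1:**
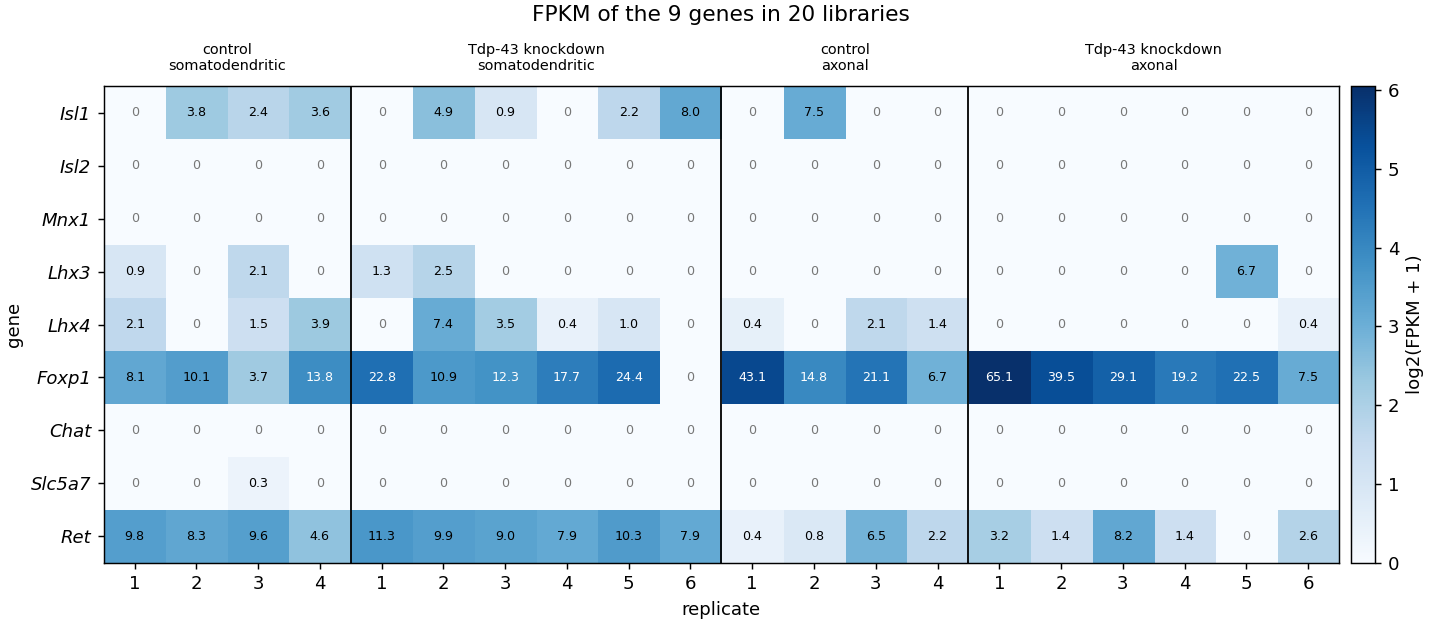
FPKM as deposited of the 9 genes (rows) in the 20 libraries (columns, replicate numbers within each group), with colour giving log2(FPKM + 1) and the number in each cell the FPKM. Isl2, Mnx1 and Chat are at 0 across all columns, and Ret and Foxp1 are above 0 in 19 of 20.

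Among the identity factors, Mnx1 (ENSMUSG00000001566, chromosome 5 of GRCm38, 29473038 to 29478519), also called Hb9, was listed at 0 in each of the 20 libraries. A floor of 3 fragments over the 10 somatodendritic libraries together corresponds to 0.315 FPKM, and over the 10 axonal libraries to 0.348 FPKM. In single libraries the same floor is 1.85 to 12.9 FPKM in somatodendritic and 2.43 to 17.8 FPKM in axonal libraries. Floors were taken with the longest annotated transcript and cover counting error only, since fragments amplified by PCR are not independent molecules. Isl2 (ENSMUSG00000032318, chromosome 9, 55538672 to 55546180), an Isl1 paralog of postmitotic motoneurons, was also listed at 0 in 20 of 20, with summed floors of 0.382 FPKM in somatodendritic and 0.422 FPKM in axonal libraries.

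Isl1 (ENSMUSG00000042258, chromosome 13, 116298281 to 116309688), which also marks some sensory neurons and dorsal interneurons, was seen mainly in somatodendritic libraries. In control somatodendritic libraries 1 to 4 it was at 0, 3.79, 2.36 and 3.64 FPKM. In the knockdown somatodendritic libraries 1 to 6 it was at 0, 4.95, 0.946, 0, 2.16 and 8.03 FPKM. The 2 groups overlapped, with zeros in both. In axonal libraries it was listed at 0 in all but control replicate 2, at 7.47 FPKM. Every value above 0 had a 95% interval that began at 0, and no value rested on more than 7.45 implied fragments.

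Lhx3 (ENSMUSG00000026934, chromosome 2, 26200212 to 26208289), a factor of motoneurons and V2 interneurons, was at 0.937, 0, 2.10 and 0 FPKM in control and at 1.33, 2.51, 0, 0, 0 and 0 FPKM in knockdown somatodendritic libraries. In axonal libraries it was at 0 in 4 of 4 control libraries, and 1 of 6 knockdown libraries, replicate 5, held 6.72 FPKM, which is 1.12 implied fragments in the shallowest library. Its paralog Lhx4 (ENSMUSG00000026468, chromosome 1, 155698036 to 155751710) was at 2.09, 0, 1.45 and 3.86 FPKM in control and 0, 7.43, 3.49, 0.355, 0.968 and 0 FPKM in knockdown somatodendritic libraries. In axonal libraries it was at 0.411, 0, 2.13 and 1.40 FPKM in control, and at 0.351 FPKM in knockdown replicate 6 with 0 in the other 5. For both genes the control and knockdown values overlapped in both compartments.

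The 2 cholinergic genes analysed gave at most 1 fragment. Chat (ENSMUSG00000021919, chromosome 14, 32408203 to 32465909), which encodes the enzyme that makes acetylcholine, was listed at 0 in all 20 libraries. A floor of 3 fragments is 0.248 FPKM over the somatodendritic and 0.274 FPKM over the axonal libraries, or 0.130 FPKM over all 20. Slc5a7 (ENSMUSG00000023945, chromosome 17, 54273594 to 54299034) was at 0.268 FPKM in control somatodendritic replicate 3, worth 1 implied fragment in the deepest library, and at 0 in the other 19. Its floors were 0.137 FPKM for somatodendritic and 0.151 FPKM for axonal libraries, so its mean of 0.0268 FPKM over the 10 somatodendritic libraries lies below what these depths can separate from 0.

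For comparison, 6299 of the 22736 protein-coding genes, or 27.7%, were listed at 0 in all 20 libraries, against 3 of 9 here, or 33.3%. Zero throughout is therefore common in these files, and nothing is read from the share of 3 of 9. Among the 14818 protein-coding genes whose longest transcript has 1500 to under 6000 bases, 20.1% were. By GC content of the transcript the share was 33.5% under 45% GC, 13.5% between 50 and 55%, 11.5% between 55 and 60% and 7.82% at 60% or more. Mnx1, Isl2 and Chat have transcripts of 58.7%, 59.98% and 54.3% GC. The part of GC content in these zeros was not tested.

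All 10 pan-neuronal genes, and 15 of 23 markers of other spinal neuron classes, averaged 1 FPKM or more in control somatodendritic libraries. Of the former, Tubb3, Gap43 and Stmn2 were at 698, 652 and 368 FPKM (mean of 4 control somatodendritic libraries). Of the latter, the genes of inhibitory transmission were highest. Gad1, which makes GABA, was at 47.7 FPKM (36.8 to 57.2), the glycine transporter gene Slc6a5 at 36.7 FPKM (30.6 to 46.8), and Slc32a1, which loads both transmitters into vesicles, at 36.1 FPKM (30.5 to 41.2). The other 8 markers averaged under 1 FPKM, among them factors of interneuron classes at levels no higher than Isl1 or Lhx4. En1, of V1 interneurons, was at 0.585 FPKM, Evx2, of V0 interneurons, at 0.103 FPKM, Sim1, of V3 interneurons, at 0.0622 FPKM, and Evx1 at 0 in all 20 libraries, all 4 named after their values were seen. Between knockdown and control, 1 of 14 tested in somatodendritic libraries was called, where 0.974% of all genes were, and 0 of 12 in axonal libraries. At an unadjusted p, which 13.8% of all genes passed, 2 rose and 3 fell in somatodendritic libraries, with a median change of -0.15 against -0.13 over all genes. The marker called was Gad2, a second GABA enzyme gene, with a log2 change of -1.26 in somatodendritic libraries (limma, adjusted p = 0.0282). Summed over the 23 markers of other spinal neurons, of which 1 was listed at 0 in all 20 libraries, control somatodendritic libraries held 220 to 260 FPKM. Summed over the 9 genes described here, they held 19.5 to 25.9 FPKM, most of it Foxp1 and Ret. The genes of glia were also present, with Fabp7 at 173 FPKM and Slc1a3 at 87.4 FPKM. Of 8 analysed markers of sensory neurons, 3 were listed at 0 in all 20 libraries and the summed level in control somatodendritic libraries was 1.40 to 2.29 FPKM.

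**Figure D2:**
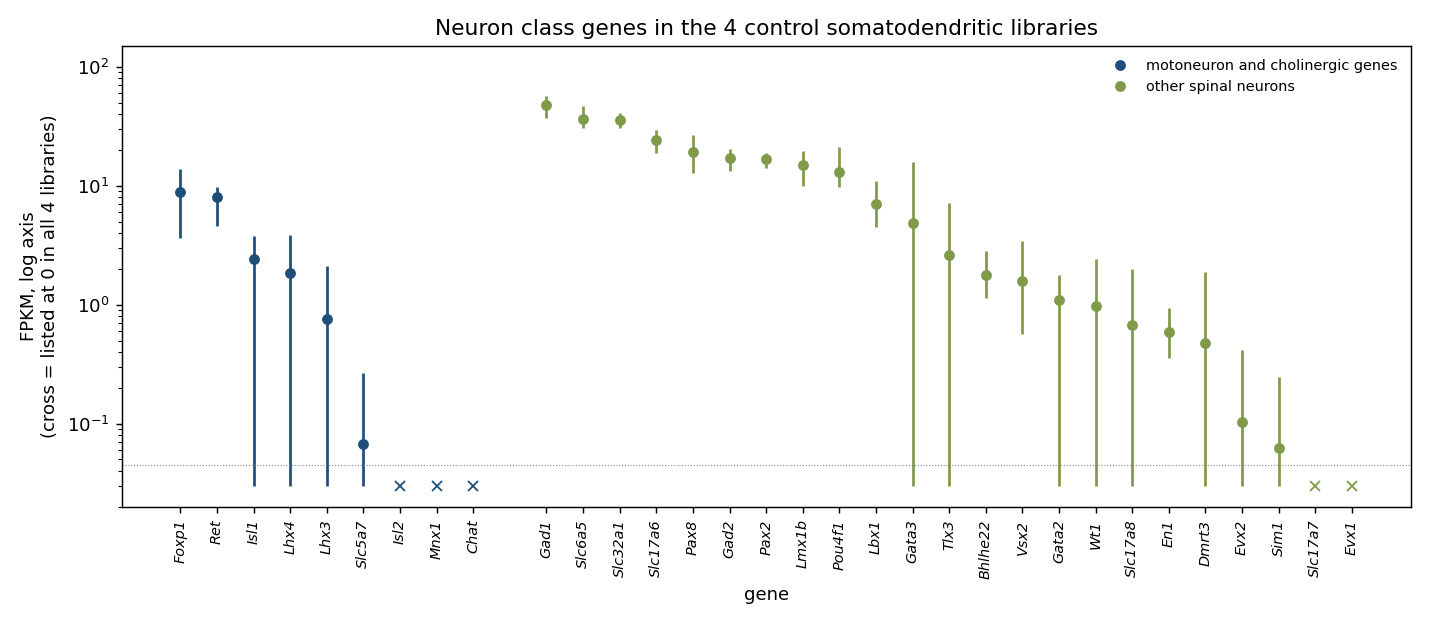
FPKM on a log axis of the 9 genes (blue) and of 23 markers of other spinal neurons (green) in the 4 control somatodendritic libraries. Points are means, lines run from the lowest to the highest library and pass the dotted line where a library was at 0, and crosses mark genes at 0 in all 4. Of the green markers 15 average 1 FPKM or more. Gad1, Slc6a5 and Slc32a1 stand at 36.1 to 47.7 FPKM, and Chat, Mnx1 and Isl2 at 0.

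Within the 9 genes, the order in control somatodendritic libraries was Foxp1 at 8.91 ± 4.21 FPKM (SD, n = 4), Ret at 8.09 ± 2.44 FPKM (SD, n = 4), then Isl1, Lhx4, Lhx3 and Slc5a7, each with at least 1 library at 0, and Chat, Mnx1 and Isl2 at 0. Foxp1 and Ret did not differ beyond their spread, and neither did Isl1, Lhx4 and Lhx3. The lowest Ret value, 4.56 FPKM, was above the highest of Isl1, Lhx4 and Lhx3, which was 3.86 FPKM. Among all 22736 protein-coding genes ranked by the same mean, Foxp1 stood at percentile 75.7 and Ret at 73.9, while Isl1 stood at 56.0.

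Ret (ENSMUSG00000030110, chromosome 6, 118151748 to 118197744) was the most evenly measured of the genes in somatodendritic libraries, but not in axonal ones. In somatodendritic libraries it was at 9.82, 8.34, 9.64 and 4.56 FPKM in control and at 11.3, 9.91, 9.03, 7.90, 10.3 and 7.93 FPKM in Tdp-43 knockdown. Control replicate 4 was the lowest of the 10 and the groups overlapped. In axonal libraries it was at 0.380, 0.833, 6.46 and 2.16 FPKM in control and at 3.23, 1.44, 8.17, 1.44, 0 and 2.59 FPKM in knockdown. Replicate 3 was the highest in both axonal groups, and the 0 is in knockdown replicate 5, where 1 fragment of Ret is worth 2.44 FPKM.

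Foxp1 (ENSMUSG00000030067, chromosome 6, 98925338 to 99522721), which in the spinal cord marks limb-innervating motoneurons and is also found in interneurons and other cells, spans 597 kb and has 31 annotated transcripts. In somatodendritic libraries it was at 8.13, 10.1, 3.66 and 13.8 FPKM in control and at 22.8, 10.9, 12.3, 17.7, 24.4 and 0 FPKM in knockdown. In axonal libraries it was at 43.1, 14.8, 21.1 and 6.66 FPKM in control and at 65.1, 39.5, 29.1, 19.2, 22.5 and 7.46 FPKM in knockdown. The lowest and highest libraries of a group differed several-fold. All but 1 of its 19 values above 0 had an interval beginning at 0, the exception being the library labelled axonal knockdown replicate 1, with 22.1 to 108 FPKM. That library held the highest Foxp1 value of all, and its Tardbp level, given above, was higher than in all 4 axonal control libraries.

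**Figure D3:**
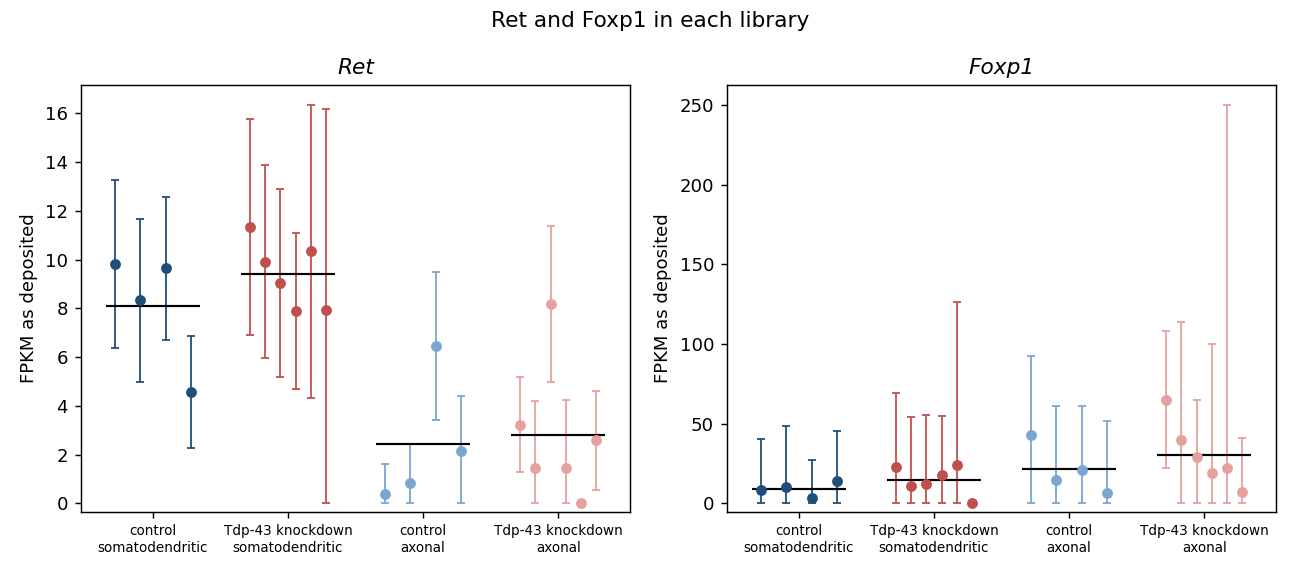
Ret and Foxp1 FPKM as deposited in each library, with the 95% interval that the authors' files give for that library and a black line at the group mean. Ret is at 4.56 to 11.3 FPKM in the somatodendritic and 0 to 8.17 FPKM in the axonal libraries, and the Foxp1 intervals reach 0 except in the library labelled axonal knockdown replicate 1.

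No change of these genes with depletion of Tdp-43 was detected. In the somatodendritic compartment the mean of Ret in knockdown was 9.41 ± 1.37 FPKM (SD, n = 6), 116% of control as deposited and 99.6% after scaling. In the axonal compartment it was 115% of control as deposited and 70.0% after scaling, within a wide spread. The test was limma on log2(scaled FPKM + 1), a scale that understates changes of low genes, for genes averaging 1 FPKM or more, with p-values adjusted after Benjamini and Hochberg across every gene in the fit.

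In the somatodendritic compartment 13762 genes were tested, of which 0.974% were called at an adjusted p under 0.05, and 0 of the 4 tested here, Isl1, Lhx4, Foxp1 and Ret, were called. At an unadjusted p under 0.05, which 13.8% of all genes passed in limma, 0 of the 4 were called too. The log2 change of Ret was 0.04, with a 95% interval from -0.58 to 0.66 (limma, adjusted p = 0.969). For Foxp1 it was 0.07 with an interval from -1.57 to 1.72 (limma, adjusted p = 0.978). The intervals of Isl1, -1.82 to 1.31, and Lhx4, -1.77 to 1.21, were as wide. The interval of Ret was the narrowest, and those of the other 3 spanned several-fold changes in either direction.

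In the axonal compartment 13958 genes were tested, of which 0.401% were called at an adjusted and 8.6% at an unadjusted p under 0.05. Ret and Foxp1 were the 2 members tested, and 0 were called at either. The log2 change of Ret was -0.20 (interval -1.67 to 1.28, limma, adjusted p = 0.954), and that of Foxp1 was 0.00 (interval -1.21 to 1.21, limma, adjusted p = 0.9998). Leaving out the library that is labelled axonal knockdown replicate 1, they were -0.25 and -0.22 (limma, adjusted p = 0.939 and 0.929). No difference of the knockdown change between the compartments was detected, with interaction log2 values of -0.26 (interval -1.82 to 1.30) for Ret, -0.11 (interval -2.14 to 1.91) for Foxp1, -0.64 for Isl1 and -0.72 for Lhx4 (limma, adjusted p = 0.987, 0.999, 0.972 and 0.962). For this interaction 0.0711% of 14062 genes were called at an adjusted and 5.61% at an unadjusted p under 0.05, and 0 of the 4 passed either.

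Isl1 and Isl2, and Lhx3 and Lhx4, were to be compared within each library on log2(FPKM + 1). Because Isl2 was at 0 throughout, its difference from Isl1 is the level of Isl1 alone and compares no pair, and it differed between knockdown and control by -0.16 in somatodendritic (exact permutation test, p = 0.871, adjusted p = 0.962) and -0.77 in axonal libraries (exact permutation test, p = 0.400, adjusted p = 0.800). The difference of Lhx3 and Lhx4 shifted by 0.05 in somatodendritic (exact permutation test, p = 0.962, adjusted p = 0.962) and 1.27 in axonal libraries (exact permutation test, p = 0.0762, adjusted p = 0.305), where the unadjusted p without knockdown axonal replicate 6 was 0.0397 and the shift without knockdown axonal replicate 5 was 0.77. These were 4 tests, all two-sided, adjusted together.

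Between the compartments the estimates of Ret and Foxp1 had opposite signs, and neither passed the adjusted threshold in either condition. Ret in axonal libraries was at 30.4% of the somatodendritic mean in control and 29.9% in knockdown as deposited (44.6% and 31.9% after scaling). Foxp1 was at 240% and 208% as deposited (350% and 247% after scaling). In control, 6.9% of 13760 genes were called at an adjusted p under 0.05 and 22.9% at an unadjusted p. The log2 difference of Ret was -1.27 (SE 0.576, interval -2.53 to 0.0019, limma, adjusted p = 0.218), with 3 of 4 axonal libraries below all 4 somatodendritic ones as deposited. That of Foxp1 was 1.497 (SE 0.531, interval 0.33 to 2.67, limma, adjusted p = 0.120), past the unadjusted threshold alone, with 3 of 4 axonal libraries above all somatodendritic ones. Without control axonal replicate 4 the difference of Foxp1 was 1.93 and its adjusted p in limma 0.0280, so that this call turns on 1 library.

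In knockdown, 1.28% of 14021 genes were called at an adjusted and 16.6% at an unadjusted p under 0.05. The log2 difference of Ret was -1.58 (SE 0.499, interval -2.64 to -0.53, limma, adjusted p = 0.120). After scaling, all axonal values lay below all somatodendritic values, and the groups did not overlap, in either direction, for 2.47% of all genes. As deposited 5 of 6 lay below, replicate 3 being the exception. The log2 difference of Foxp1 was 1.48 (SE 0.671, limma, adjusted p = 0.281). Leaving out the library that is labelled axonal knockdown replicate 1, the differences were -1.65 for Ret and 1.25 for Foxp1 (limma, adjusted p = 0.156 and 0.415). Isl1, at 0 in all 6 axonal and above 0 in 4 of 6 somatodendritic knockdown libraries, gave -1.33 (limma, adjusted p = 0.242), and Lhx4 gave -0.95 (limma, adjusted p = 0.393). Over all 6 axonal libraries Ret, Foxp1 and Isl1 passed the unadjusted threshold. None of the 4 members tested, in control or knockdown, had an adjusted p under 0.05.

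**Figure D4:**
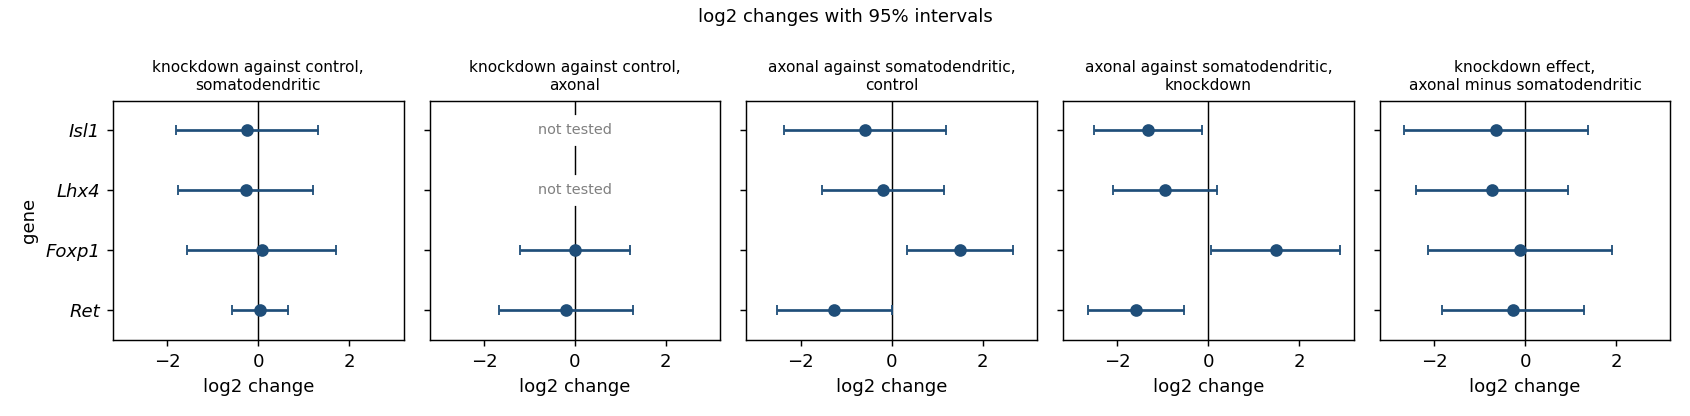
log2 changes on the log2(scaled FPKM + 1) scale with their 95% intervals for the members tested in each of 5 comparisons, where points are estimates and bars intervals. In both panels of knockdown against control and in that of the interaction all intervals cross 0, and the interval of Ret is narrowest in somatodendritic knockdown against control, from -0.58 to 0.66.

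Other measures moved with the compartment beside these 2 genes. For the counts that follow, 6.9% of all genes tested between compartments were called in control and 1.28% in knockdown. Pan-neuronal genes were lower in axonal libraries, with 9 of 10 called in control (limma, adjusted) and a median log2 difference of -1.34, against -0.06 over all genes tested. In knockdown 2 of 10 were called and the median was -1.22, against -0.07. Tubb3 and Stmn2 in axonal control libraries were at 29.2% and 26.7% of the somatodendritic mean as deposited, close to the 30.4% of Ret. Of the markers of other spinal neurons, 5 of 12 tested were lower in axonal control libraries, Slc6a5, Gad1, Slc32a1 and Gad2 among them, with a median of -1.31, and in knockdown 0 of 13 were called, with a median of -1.15. Of the glial genes 0 of 9 were called in either condition, with medians of -0.81 and -0.97. Of the 7 fibroblast and meningeal genes, 2 of 3 tested were higher in axonal libraries in control and 2 of 5 in knockdown. They were Fn1, a matrix protein, at 262 FPKM in axonal against 26.2 FPKM in somatodendritic control libraries (log2 difference 3.68, limma, adjusted p = 0.00201) and Col1a1 at a log2 difference of 3.51 (limma, adjusted p = 0.00442). Summed over its 7 genes that list was at 15.4 to 57.3 FPKM in somatodendritic and 118 to 526 FPKM in axonal control libraries, and at 89.8 to 673 FPKM in axonal knockdown libraries, with Lum, named after its values were seen, at 0 in all axonal libraries. Dcn, another matrix gene of the list, was at 0.826 FPKM in somatodendritic and 0.607 FPKM in axonal control libraries, and at 0.939 and 0.17 FPKM in knockdown. Of 4 nuclear noncoding RNAs, 0 were called in control and 1, Malat1, was higher in axonal knockdown libraries. It was at 1391 FPKM against 680.2 FPKM in somatodendritic ones (log2 difference 1.30, limma, adjusted p = 0.0177). All 6 axonal lay above all 6 somatodendritic libraries, where after scaling 2.47% of all genes did not overlap in either direction. In control Malat1 was at 382 against 698 FPKM (log2 difference -0.35, limma, adjusted p = 0.321), and the interaction was 1.59 (limma, adjusted p = 0.0687). The part of these cell types, and of nuclear RNA, in the values of Ret and Foxp1 was not tested. In bulk libraries fewer cells of a type and less RNA per cell cannot be told apart.

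Gfra1, Gfra2 and Gfra4, co-receptor genes of Ret, were present, while its ligand genes averaged under 1 FPKM in control somatodendritic libraries. There Gdnf and Artn were at 0.263 and 0.21 FPKM and Nrtn at 0, and Pspn was at 0 in all 20 libraries. In axonal control libraries Artn averaged 3.72 FPKM and Nrtn 1.90 FPKM. The ligands were named after their values were seen. Gfra1, the co-receptor for GDNF, was at 28.4 FPKM (24.2 to 34.0) in control and 43.5 FPKM (27.1 to 58.7) in knockdown somatodendritic libraries, a log2 change of 0.35 that did not pass (limma, adjusted p = 0.594). In axonal control libraries it was at 8.22 FPKM (log2 difference -1.19, limma, adjusted p = 0.0301). In knockdown the difference was -2.40 (limma, adjusted p = 0.0596). The co-receptor genes Gfra2 and Gfra4, named after their values were seen, were at 10.6 and 8.51 FPKM in control somatodendritic libraries, and Gfra3 was listed at 0 in all 20. Of the 16 genes of GDNF family and other trophic receptors and ligands, 11 were tested between compartments in control. Of these 1 fell, Gfra1, and 0 rose, where 6.9% of all genes were called. In knockdown, where 1.28% of all genes were called, 1 of 10 rose. It was Il6st, a subunit shared by the receptors for CNTF and related cytokines, with a log2 difference of 1.83 (limma, adjusted p = 0.0454). Between knockdown and control 0 of 10 somatodendritic and 0 of 12 axonal members of the list were called, and at an unadjusted p, which 13.8% and 8.6% of all genes passed, 1 rose and 1 fell in each. The neurotrophin receptor genes Ntrk2 and Ntrk3 were at 42.6 and 28.9 FPKM. Ngfr, the target of the enriching antibody and also named after its values were seen, was at 0.658 to 4.25 FPKM in control somatodendritic libraries and above 0 in 14 of 20 libraries.

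Of 21 genes around acetylcholine that other cells also express, such as those for its precursors and receptors, 14 averaged 1 FPKM or more in control somatodendritic libraries and 2, Colq and Chrna2, were listed at 0 in all 20 libraries. The receptor genes Chrnb3, Chrnb4 and Chrm1 were above 0 in 1, 2 and 2 of 20 libraries. These 5 were named after their values were seen. Acly, which supplies acetyl-CoA, was at 85.7 FPKM (76.9 to 94.6), the nicotinic receptor gene Chrna4 at 35.7 FPKM (26.7 to 41.7) and the choline kinase gene Chkb at 16.9 FPKM (13 to 19.4) in control somatodendritic libraries. Of the 21 genes, 14 were tested in each compartment for knockdown against control and 0 were called. At an unadjusted p, which 13.8% and 8.6% of all genes passed, 1 rose in somatodendritic and 0 passed in axonal libraries. The gene that rose was Acly, by 0.48 on the log2 scale (limma, adjusted p = 0.102). The median change over the list was -0.18 and -0.04, against -0.13 and -0.17 over all genes. Between compartments 0 of 14 were called in either condition, where 6.9% of all genes were in control and 1.28% in knockdown. At an unadjusted p 2 fell in control and 5 in knockdown, against 22.9% and 16.6% of all genes. The median difference was -0.71 in control and -0.61 in knockdown, against -0.06 and -0.07 over all genes.

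Of 26 factors of motoneuron columns and pools, which interneurons also express, Meis2 and Pbx3, cofactors of Hox proteins, and Ebf1, a factor of neuronal differentiation, were highest at 66.3, 58.4 and 60.4 FPKM in control somatodendritic libraries. In these libraries 21 of the 26 averaged 1 FPKM or more, and the lowest, named after their values were seen, were Onecut1 at 0.117 FPKM and Runx1 at 0.158 FPKM. The files hold a second row with the symbol Ebf1, a pseudogene that overlaps it and was not used, so that reads may have been split between them. Between knockdown and control 0 of 22 somatodendritic and 0 of 22 axonal members of this list were called, where 0.974% and 0.401% of all genes were. At an unadjusted p, which 13.8% and 8.6% of all genes passed, 3 were higher and 0 lower in somatodendritic libraries. In axonal libraries 2 were higher and 1 lower. Ebf1, among the higher there, had a log2 change of 2.01 (limma, adjusted p = 0.0949). In control, where 6.9% of all genes were called, 2 of 22 were lower in axonal libraries. They were Hoxd10, a lumbar Hox gene, by -1.24 on the log2 scale (limma, adjusted p = 0.0289), and Ebf1 by -1.27 (limma, adjusted p = 0.0289). In knockdown, where 1.28% of all genes were called, 0 of 23 passed.

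Of a list of 10 partners and regulators of LIM factors, LIM-only genes among them, Ldb1, Ssbp2 and Ssbp3 were highest. They were at 64.2, 45 and 32.4 FPKM in control somatodendritic libraries. All 10 were tested in every comparison, and 0 were called between knockdown and control in either compartment. At an unadjusted p 3 were higher and 1 lower in somatodendritic libraries, where 13.8% of all genes passed, and 1 was higher and 1 lower in axonal libraries, where 8.6% did. Ldb2, a paralog of Ldb1, had a somatodendritic log2 change of 1.19 (limma, adjusted p = 0.0676). In control, where 6.9% of all genes were called, 3 of 10 were lower in axonal libraries. They were Lmo3, a LIM-only protein, by -1.87 (limma, adjusted p = 0.0246), Ldb2 by -2.09 (limma, adjusted p = 0.0333) and Ssbp2 by -0.998 (limma, adjusted p = 0.0395). In knockdown, where 1.28% of all genes were called, Lmo3 alone passed, with -3.13 (limma, adjusted p = 0.0374). The median of the list was -0.10 in control and -0.35 in knockdown, against -0.06 and -0.07 over all genes.

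Of the 11 factors of motoneuron progenitors, Olig1, Pax6 and Olig2 were highest, at 48.3, 21.7 and 19.1 FPKM in control somatodendritic libraries. Olig1 and Olig2 also mark oligodendrocyte precursors and Pax6 also marks other progenitors. Of 8 tested, Olig1 was lower in axonal control libraries, by -2.01 (limma, adjusted p = 0.0164), and 0 passed in knockdown or between knockdown and control. Over all genes 6.9% were called between compartments in control and 1.28% in knockdown. Between knockdown and control 0.974% of all genes were called in somatodendritic and 0.401% in axonal libraries.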

How the data were processed

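Deposited values were FPKM that the authors computed per library with Cufflinks 2.2.1 on GRCm38, after quality control with FastQC 0.10.1. The aligner is not given in the sources used here. The 10 genes and the lists around them were chosen with earlier results of these data known. For genes with 1 transcript, FPKM times length divided by the fragments implied by the interval was 1 value per library, within 1% for 59.2 to 63.9% of such genes, which gives the library totals. Lengths came from GENCODE M21, which holds 37604 of 39174 genes. Scaling used median ratios of the genes at 1 FPKM or more in each library of a fit, the pseudocount was 1, and genes averaging 1 FPKM or more entered limma 3.58.1 (trend, Benjamini-Hochberg, 95% intervals) in R 4.3.3, over the libraries compared and without a replicate block. Scripts were tested on simulated data. Single values were compared by two-sided exact permutation over 210 splits. A value at or under 0.001 FPKM counts as 0. Genes named beyond the 9 are the 3 highest of each list in control somatodendritic libraries and those with an adjusted p under 0.05, at most 4 per list and comparison, with exceptions marked where they occur. The difference of Chat and Slc18a3 was not computed. Alternatives were FPKM as deposited, quantile normalization, other pseudocounts and filters, array weights, a replicate block, 1 fit over 20 libraries, leaving out libraries under a relative depth of 0.5, and leaving out each library. Python 3.11.15, numpy 2.4.6, pandas 2.3.3, scipy 1.17.1 and matplotlib 3.10.9 were used.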

Additional observations from a re-analysis of the deposited data

Results flagged for a closer look

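In 5 of 23 groups of 4 or 6 libraries, 1 library stood apart from the rest by Dixon's criterion at the 95% level, which chance gives in about 5% of groups. Isl1 was at 7.47 FPKM in control axonal replicate 2 and at 0 in the other 3. Lhx3 was at 6.72 FPKM in knockdown axonal replicate 5, and Lhx4 at 0.351 FPKM in knockdown axonal replicate 6, each with the other 5 libraries at 0. Slc5a7 was at 0.268 FPKM in control somatodendritic replicate 3 and at 0 in the other 3. In these 4 groups the rest of the libraries are at 0, so that any value above 0 meets the criterion, and 3 of the 4 values rest on 0.984 to 1.12 implied fragments. Tardbp was at 19.04 FPKM in control somatodendritic replicate 2, against 29.6 FPKM in the nearest other library.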

How the results depend on the processing

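The number of these genes called was 0 in all 5 comparisons under each alternative run, except 1 in axonal against somatodendritic control libraries without control axonal replicate 4 (range 0 to 1). Of 382 estimates under alternatives, over 18 pairs of gene and comparison, 340 kept direction and side of the threshold, 41 changed sign and 1 passed. The cause was not tested.

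For knockdown against control in somatodendritic libraries, Foxp1 was -0.39 with a pseudocount of 0.1 and Lhx4 was 0.041 without libraries under a relative depth of 0.5. Leaving out each library gave -0.80 to 0.018 for Isl1, -0.73 to 0.046 for Lhx4, -0.26 to 0.76 for Foxp1 and -0.20 to 0.14 for Ret. In axonal libraries, Ret was 0.14 as deposited, 0.20 with array weights and 0.46 without shallow libraries, and Foxp1 was -0.0090 with a pseudocount of 5, -0.069 with array weights, -0.028 in 1 fit and -0.11 without shallow libraries. Leaving out each library gave -0.57 to 0.33 for Ret and -0.45 to 0.42 for Foxp1. For the interaction, Foxp1 was 0.23 as deposited and 0.35 with a pseudocount of 0.1, and Ret was 0.19 with array weights and 0.39 without shallow libraries. Leaving out each library gave -0.94 to 0.24 for Isl1, -0.75 to 0.32 for Foxp1 and -0.65 to 0.29 for Ret. Between compartments in control, leaving out each library gave -0.57 to 0.14 for Lhx4, 1.08 to 1.93 for Foxp1 and -1.80 to -0.91 for Ret. The other alternatives gave -1.79 to -0.62 for Ret in control. In knockdown they gave -2.34 to -0.84 for Ret, 0.74 to 2.05 for Foxp1 and -3.22 to -0.49 for Isl1.

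Deviations of libraries with the same replicate number, across compartments or conditions, correlated at -0.054 to 0.096. With so few libraries per group this cannot settle whether they came from the same culture, and the labels do not say. With the replicate block, Lhx4 was 0.031 in somatodendritic and Ret 0.076 in axonal knockdown against control, and 0 of these genes were called. Over all genes the block gave 18, 35, 430 and 13 calls, against 134, 56, 949 and 179 without it, for knockdown in somatodendritic and axonal libraries and for compartments in control and knockdown. Over all alternatives but leaving out single libraries, those 4 counts ranged from 18 to 432, 30 to 240, 327 to 2055 and 13 to 758, and leaving out each library they ranged from 58 to 198, 37 to 70, 364 to 1559 and 24 to 439.

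The axonal Tardbp level was 35.1% of control after scaling by the median of ratios (exact permutation test, p = 0.00952). As deposited, leaving out each library gave 36.5 to 62.5% in axonal and 11.3 to 17.6% in somatodendritic libraries. Leaving out each library, the difference of Isl1 and Isl2 shifted by -0.68 to 0.12 in somatodendritic and -1.03 to 0 in axonal libraries, and that of Lhx3 and Lhx4 by -0.49 to 0.38 and 0.77 to 1.56 (exact permutation p in axonal libraries 0.0397 to 0.310). With a pseudocount of 5 the somatodendritic shift of Lhx3 and Lhx4 was -0.015. Other pseudocounts and scaling gave axonal shifts of 0.43 to 3.34 for Lhx3 and Lhx4 (exact permutation p 0.0762 to 0.171). For Isl1 and Isl2 they gave -1.56 to -0.33. Depth limits Mnx1, Isl2, Chat and Slc5a7 to values under the floor, and Isl1, Lhx3 and Lhx4 to a few fragments in most libraries.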
